A study of Schizosaccharomyces pombe with 28 samples.

Results

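The rad and rhp genes of fission yeast (Schizosaccharomyces pombe) are named for radiation sensitive mutants and for homologues of the budding yeast RAD genes. The probes described here are those whose gene name begins with rad or rhp followed by a digit, 1 such name being left out by the rule, together with the intergenic probes that carry the same names. They came to 57 of 9866 probes kept: 28 of 4906 open reading frame (ORF) probes and 29 of 4960 intergenic region (IGR) probes. They stand for 29 genes, of which 27 had both kinds of probe. The ORF spot of rad1 is marked missing, so rad1 was measured through its IGR probe alone. The gene rad35 had an ORF probe alone, and rad32 had 2 IGR probes, a normal and a long one. No probe of the names rad50 or rhp18 was found, and those genes are not analysed here. By current gene names 19 of the 29 genes lie on chromosome I, 5 on chromosome II and 5 on chromosome III.

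Each array was a glass slide spotted with PCR products of the ORF and IGR regions, with 2 spots a probe. It was hybridised with chromatin immunoprecipitation (ChIP) DNA in Cy3 and Cy5. H3K4me2 and H3K9me2, dimethylation of histone H3 at lysine 4 or lysine 9, were compared between cells in which a drug resistance cassette replaces the ORF of swm1 (swm1Δ) and wild type (wt) cells, on 2 dye-swapped arrays of independent ChIP samples a mark (C1 and C2 for H3K4me2, B1 and B2 for H3K9me2). All ratios of the methylation arrays are log2 of swm1Δ over wild type. Swm1 is a fission yeast relative of the human demethylase LSD1. Hrp1-myc and Hrp3-myc, tagged forms of chromatin remodellers of the CHD family, were compared with input DNA on 3 arrays each for the ORF and IGR parts. A further 6 data sets, 3 for each part, are labelled as H3 in Hrp1-D against input. Neither growth stage nor the full genotype of these ChIP strains is given in the labels, no DNA damaging treatment is named, and the source does not say whether swm1Δ was examined in more than 1 clone. For Hrp and H3 arrays nothing says that replicates came from separate cultures, so spread between them may be technical.

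The proteins made from these genes act at successive steps of the DNA damage response. A sensor kinase (Rad3, the relative of human ATR) and a ring-shaped clamp with its loader (Rad1, Rad9, Rad17) detect damage and, through adaptors such as Rhp9 and Rad4, hold the cell cycle. Broken ends are then processed (Rad32) and repaired by recombination (Rad22, Rhp54), while ultraviolet lesions are cut out by nucleotide excision repair (Rad13, Rad16, Rhp14). H3K4me2 is a mark of active chromatin and H3K9me2 is best known in this yeast from heterochromatin at centromeres, telomeres and the mating-type locus.

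The deleted gene served as a check of the labels. The swm1 ORF probe gave H3K4me2 log2 ratios of -4.04 on C1 and -3.76 on C2. On the H3K9me2 array B1 its signals were between 0.942 and 1.46 times the local background in both dyes and check nothing. On B2 the ratio was -1.43, but the swm1Δ signals at the deleted ORF were 49.8 and 56.6 times background. Of all ORF probes 8.18% were at least 2.0-fold lower on both spots of B2, so that B2 is a weak check. The swm1 IGR probe, outside the replaced ORF, gave -2.39 and -2.29 for H3K4me2 but 0.81 and 0.16 for H3K9me2. It does not check the labels of the H3K9me2 arrays. The 2 H3K4me2 arrays correlated over all ORF probes at r = 0.70 and over IGR probes at r = 0.43, whereas the 2 H3K9me2 arrays did so at 0.06 and 0.01. The swm1Δ dye of B1 is given differently for its ORF and IGR parts; it was read as Cy5, which the stated dye swap and the IGR label require, and with the ORF label the sign of B1 turns, which reversed 4 of the 6 H3K9me2 ORF means past the 2.0-fold cut-off.

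In swm1Δ cells H3K4me2 changed in the ORF of 9 of the 28 genes, in both directions. It rose in 5 of them, rhp26, rad35, rad3 and rad26 included, between 1.59-fold and 2.00-fold on average. It fell at rad13, rad32, rhp57 and rad2, with mean ratios of swm1Δ over wild type between 0.533 and 0.617. These are the calls of a moderated test (limma) on the array means with Benjamini-Hochberg adjustment over all ORF probes at 0.05. Over all 4906 ORF probes the same test called 16.3% higher and 13.3% lower, so that 5 and 4 of 28 lie near the background and are not a result about these genes as a list. The median log2 ratio of the 28 was 0.19 against -0.02 over all ORF probes. Their arrays correlated at r = 0.72 across the 28 probes, which are not independent replicates. Each array was centred by loess and compared ChIP DNA with ChIP DNA, without an input or H3 channel. The rises and falls are thus relative to the bulk of the probes, and a shift shared by all probes was not measured.

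Among the 8 checkpoint genes with an ORF probe, 2 rose, none fell and 6 did not pass the test. Over all ORF probes 16.3% were called higher and 13.3% lower, and the roles were not tested against each other. Rad3 is the ATR-type kinase at the head of the pathway and Rad26 its regulatory partner. The rad3 ORF had log2 ratios of 1.34 on C1 and 0.13 on C2, a mean of 0.74 ± 0.86 (SD, n = 2 arrays) with a limma adjusted p of 0.041. Array C1 alone carried the rise at rad3, and without it a value of 0.13 was left. The rad26 ORF was higher on both arrays, with 0.88 on C1 and 0.46 on C2 (mean 0.67 ± 0.30, adjusted p = 0.034). Its wild type signal on C1 was 1.91 and 1.84 times the local background. On C2 both dyes gave between 3.42 and 6.10 times background.

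The remaining checkpoint ORFs gave no call. The pair rad24 and rad25 encode related phosphoprotein-binding adaptors, and their ORFs had unlike values, although the difference was not tested. The rad25 ORF had 0.53 and 0.57 on the 2 arrays (adjusted p = 0.068) and the rad24 ORF 0.07 and -0.09. The clamp subunit gene rad9 stood at 0.67 and 0.21 (adjusted p = 0.15), and rad17, which encodes the clamp loader, at -0.05 and -0.16. The adaptor genes rad4 and rhp9 (now crb2) had means of 0.13 and -0.04. For rad4 and rhp9 the arrays lay on either side of 0.

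Among the genes of double-strand break repair and recombination rad32 and rhp57 fell. The nuclease gene rad32 (mre11) had -0.54 and -0.98 (mean -0.76 ± 0.32, adjusted p = 0.019). The recombination mediator gene rhp57 (rad57) had -0.98 and -0.50 (mean -0.74 ± 0.33, adjusted p = 0.022). Both were below 0 on both arrays. The partner of rhp57, rhp55, had -0.32 and -0.37 (adjusted p = 0.25), the motor protein gene rhp54 0.40 and 0.45 (adjusted p = 0.16), the cohesin gene rad21 0.17 and 0.68 and rad18 (smc6) 0.27 and 0.08. The annealing factor gene rad22 (rad52) was near 0, at 0.06 and -0.11. Its signals on C2 were weak, 1.51 and 3.51 times background in swm1Δ and 4.22 and 22 times in wild type.

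In the nucleotide excision repair group, with rad2 counted in it, 1 ORF rose, 2 fell and 5 did not pass the test. The shares of all ORF probes were 16.3% called higher and 13.3% lower. The largest rise among the 28 was at rhp26, the relative of the human transcription-coupled repair factor CSB, with 0.96 on C1 and 1.04 on C2 (a mean rise of 2.00-fold, with an SD of 0.05 on the log2 scale and an adjusted p of 0.0034). It was also the sole ORF that met the cut-off given in the methods, a 2.0-fold higher ratio in 3 or more of the 4 data points, against 3.3% of all ORF probes, and none met the mirrored rule for a fall, against 2.12%. The largest fall was at rad13, the nuclease gene related to human XPG, with -0.74 and -1.07 (mean -0.91 ± 0.23, adjusted p = 0.0066). The flap endonuclease gene rad2 was put in this group by the list of roles, although its product is known from replication. It had -1.16 and -0.23 (mean -0.70 ± 0.66, adjusted p = 0.041). The nuclease gene rad16, related to XPF, had 0.73 and -0.06, so the arrays disagreed in sign, and rad15, a helicase of the TFIIH complex, had 0.52 and 0.33 (adjusted p = 0.16). The damage recognition genes rhp14, rhp23 and rhp4a had means of 0.31, 0.06 and 0.19.

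The gene rad35 (dfp1), the regulatory subunit of the replication kinase Hsk1, had 0.80 on C1 and 1.14 on C2 (mean 0.97 ± 0.24, adjusted p = 0.0044). The ubiquitin conjugating enzyme gene rhp6 had -0.20 and -0.55, the SUMO activating enzyme gene rad31 had -0.31 and -0.53, and the DNA-dependent ATPase gene rad8 had 0.66 and 0.06. None of these 3 passed the test.

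**Figure D1:**
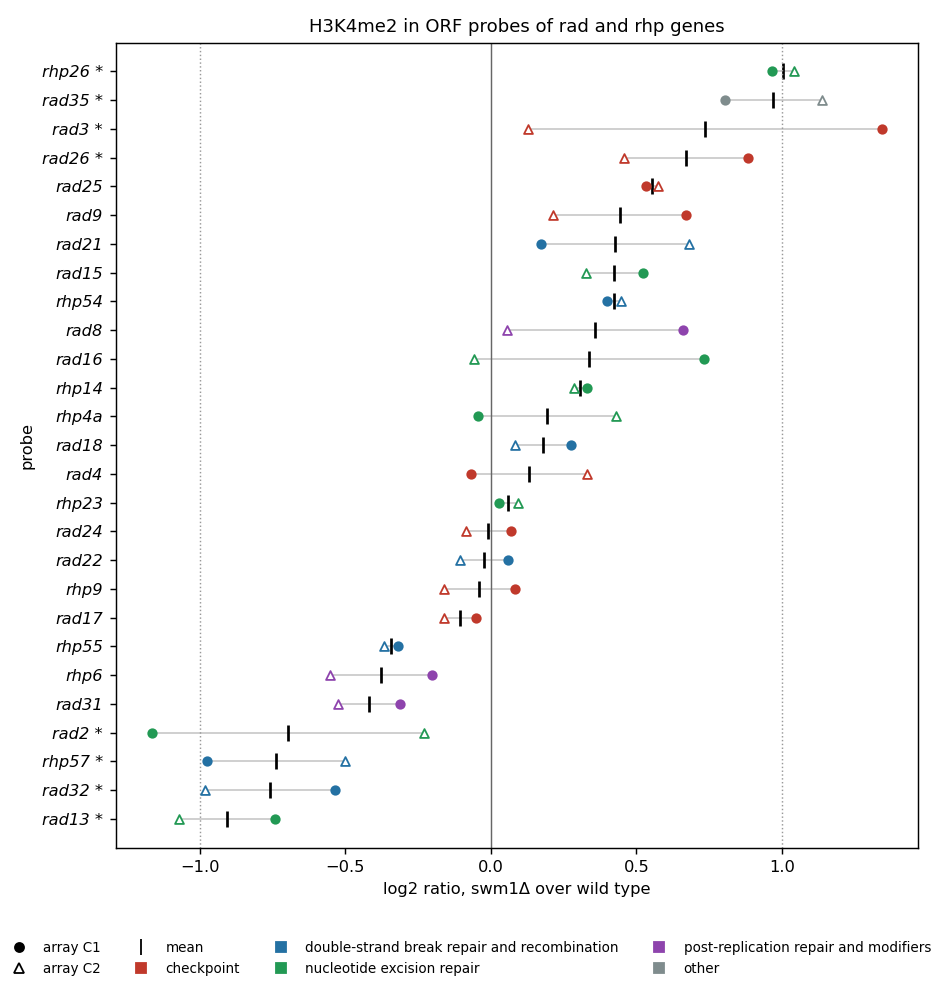
H3K4me2 log2 ratio of swm1Δ over wild type (horizontal axis) in 27 of the 28 ORF probes, sorted by mean, with filled circles for array C1, open triangles for C2, vertical ticks for the mean, colours for the role and asterisks for limma calls. The called probes sit at the ends, from a mean of -0.91 for rad13 to a 2.00-fold rise for rhp26, and the arrays lie far apart for rad3 and rad2.

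The order of the means ran from rad13 at the 5.08th percentile of all ORF probes to rhp26 at the 95.5th percentile. With a standard error between 0.22 and 0.26 on each mean, neighbours in this order do not differ beyond their spread. Both arrays were above 0 for 14 of the 28 ORFs and below 0 for 8, and 76.6% of all ORF probes had the same sign on both arrays.

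The calls at rad3, rad2, rad26 and rhp57 depended on the processing. The adjusted p of rad3 and rad2 was above 0.05 with the deposited ratios (0.052 and 0.052), without background correction (0.065 and 0.061) and without flagged spots (0.057 and 0.053). That of rad26 was 0.054 with the deposited ratios, 0.081 without background correction and 0.14 with median centring in place of loess, which also took the call from rhp57 (0.077).

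The chromosomal neighbours of the called ORFs lay on both sides of 0. For each called ORF the 2 nearest measured ORFs on either side were read from the same arrays. Of all ORF probes 16.3% were called higher and 13.3% lower. The rise at rad35 lay in a stretch where the 4 neighbours were all above 0, with a median of 0.79, and 3 of them were called higher. The rise at rad3 was shared by its neighbour swi1, a replication fork protection gene, which had a mean of 1.01. The next ORF on that side, tor2, was called lower, with -1.11. The ORFs on the other side had -0.69, also called lower, and -0.11. The falls at rhp57 and rad13 had called falling neighbours, with 2 of 4 each, whereas rad32 lay among neighbours with a median of 0.36, of which gaf2 was called higher (0.82). Of the 9 called ORFs 5 had the sign of their neighbours' median, and across the 28 ORFs the correlation with that median was r = 0.24, over probes that share the arrays.

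**Figure D2:**
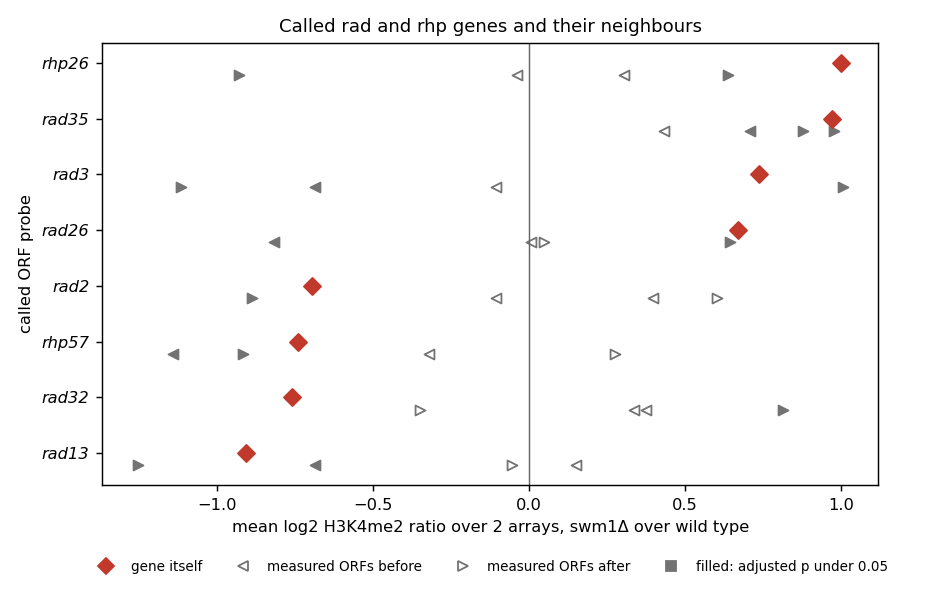
Mean H3K4me2 log2 ratio over 2 arrays (horizontal axis) for 8 of the 9 called ORFs (red diamonds) and, just under each, their 2 nearest measured ORFs before (left-pointing) and after (right-pointing) on the chromosome, filled where called. The 4 neighbours of rad35 lie above 0, from 0.43 to 0.98, and those of rad3 lie on both sides of it.

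Other genes of the DNA damage response were read from a list of 73 names. Of these 64 had an ORF probe, and H3K4me2 rose in 9 and fell in 10 of them, with a median of -0.17, where 16.3% of all ORF probes were called higher and 13.3% lower. Those named next were chosen after their values were seen. The mitotic inhibitor kinase gene wee1 had 1.83 on C1 and 1.63 on C2 (adjusted p = 6.47e-05), and the junction nuclease gene mus81 had 1.51 and 1.28. The translesion polymerase gene rev3 had -1.67 and -0.83 and tid1, which encodes a relative of the Rhp54 motor protein, had -1.07 and -1.17. Mus81 and its partner eme1 (0.86 and 0.54) both rose, while of the genes whose products bind rad18's in the Smc5-Smc6 complex spr18 (smc5) rose, with 0.84 and 0.45, nse2 and nse4 fell, with means of -1.08 and -1.03, and nse1 and nse3 did not pass the test (0.03 and 0.10). None of the 64 measured IGR probes of the same list passed the test.

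In the intergenic regions 1 of the 29 probes passed the test for H3K4me2, against 4.07% of all IGR probes called higher and 1.53% called lower. It was that of the clamp subunit gene rad1, which fell, with -1.07 on C1 and -0.73 on C2 (mean -0.90 ± 0.24, limma adjusted p = 0.045). The call was lost with the deposited ratios (adjusted p = 0.055), without background correction (0.083) and with median centring (0.11). None of the 29 met the 2.0-fold cut-off in 3 data points in either direction, against 1.96% high and 0.464% low of all IGR probes. Scanner values of 1 of the 2 IGR spots of C1 were used, so that each IGR probe had 3 data points.

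The highest IGR means were at rad2 (0.78 and 0.23), at rhp4a (0.40 and 0.53) and at the long IGR of rad32 (0.34 and 0.45). The lowest after rad1 were rad25, with -0.75 and -0.02, and rad3, with -0.18 and -0.53, so that rad3, rad25 and rad2 had IGR and ORF means of opposite sign. The normal IGR probe of rad32 had -0.29 and -0.24, unlike its long IGR. Of the 9 checkpoint IGR probes 2 had a mean above 0, those of rad9 (0.29) and rad4 (0.001). Of the 8 excision repair probes, rad2 included, 6 did, against 49.5% of all IGR probes. The roles were not tested against each other. Signs on the 2 arrays matched in 15 of 29 probes, against 59.7% of all IGR probes. Over the 27 genes with both probes the ORF and IGR means had the same sign in 16, with r = 0.03 across genes, and over the 4394 names with both probes r was 0.16.

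**Figure D3:**
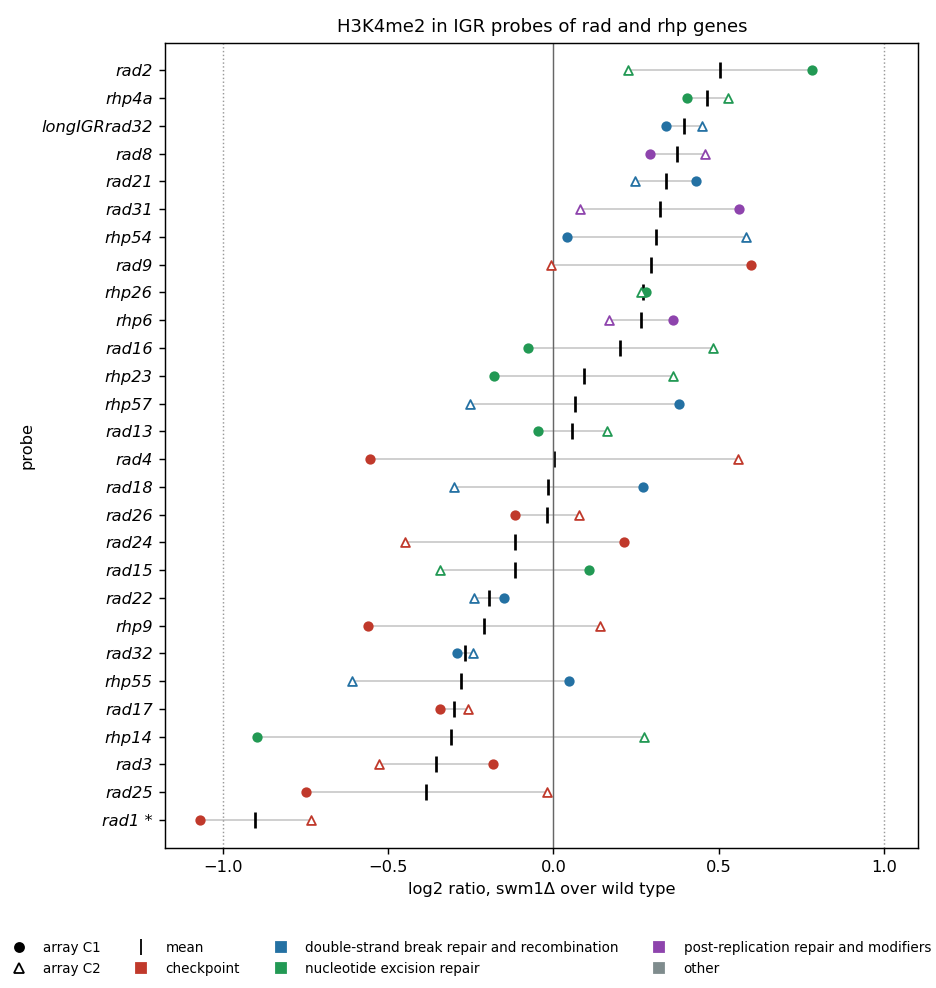
H3K4me2 log2 ratio of swm1Δ over wild type (horizontal axis) in 28 of the 29 IGR probes, sorted by mean, with symbols and colours as for the ORF probes (filled circles C1, open triangles C2, ticks the mean, asterisk the limma call). The mean of rad1 at -0.90 lies apart at the bottom and the others drawn lie between -0.38 and 0.50.

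H3K9me2 in the ORFs gave large ratios on single arrays and no call. By the 2.0-fold cut-off in 3 of 4 data points 3 ORFs were high, rad9, rad17 and rhp4a, and 3 were low, rad31, rhp23 and rad26, against 3.63% high and 3.75% low over all ORF probes. The limma test called 0 of 4906 probes (0% in either direction) and gave 2 of the 28 an unadjusted p under 0.05 (rad31 and rad9), against 3.57% of all ORF probes.

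The clamp subunit gene rad9 had 2.16 on B1 and 1.88 on B2 (mean 2.02 ± 0.20, n = 2, adjusted p = 0.93), with 4 of 4 data points above the cut-off. On B1 its wild type signal was 1.75 and 1.46 times the local background, so that the ratio there has a poorly measured denominator. The clamp loader gene rad17 had 1.92 and 1.30 (mean 1.61 ± 0.44). Its wild type signal on B2 was 1.44 and 1.63 times background. The lesion recognition gene rhp4a (rhp41, related to human XPC) had 1.57 and 1.09, with a wild type signal on B2 of 1.90 and 1.86 times background. These 3 ORFs were high on both arrays.

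The low values were at rad31, with -4.42 on B1 and -1.34 on B2 (mean -2.88 ± 2.18), at rhp23, with -0.89 and -1.73, and at rad26, with -0.95 and -1.24. At rad31 the swm1Δ signal on B1 was 1.75 and 2.30 times background. At rad26 the signals on B2 were between 1.86 and 3.29 times background in both dyes, and the spots on B1 gave -0.33 and -1.57. Several other ORFs were far from 0 on B1 and not on B2: rad16 (2.81 and 0.74), rad2 (2.61 and 0.26), rad35 (-2.58 and -0.62), rad24 (-3.11 and 0.33) and rhp14 (-4.19 and 0.32). The swm1Δ signals on B1 were 1.64 and 1.98 times background at rad24 and 1.67 and 1.91 times at rhp14. Of the 28 ORFs 11 had the same sign on both arrays, against 51.0% of all ORF probes. With B1 read by its ORF label 1 gene was high (rhp55, the partner of rhp57) and none low, and the means of rad9, rad17, rhp4a and rad31 became -0.14, -0.31, -0.24 and 1.54.

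**Figure D4:**
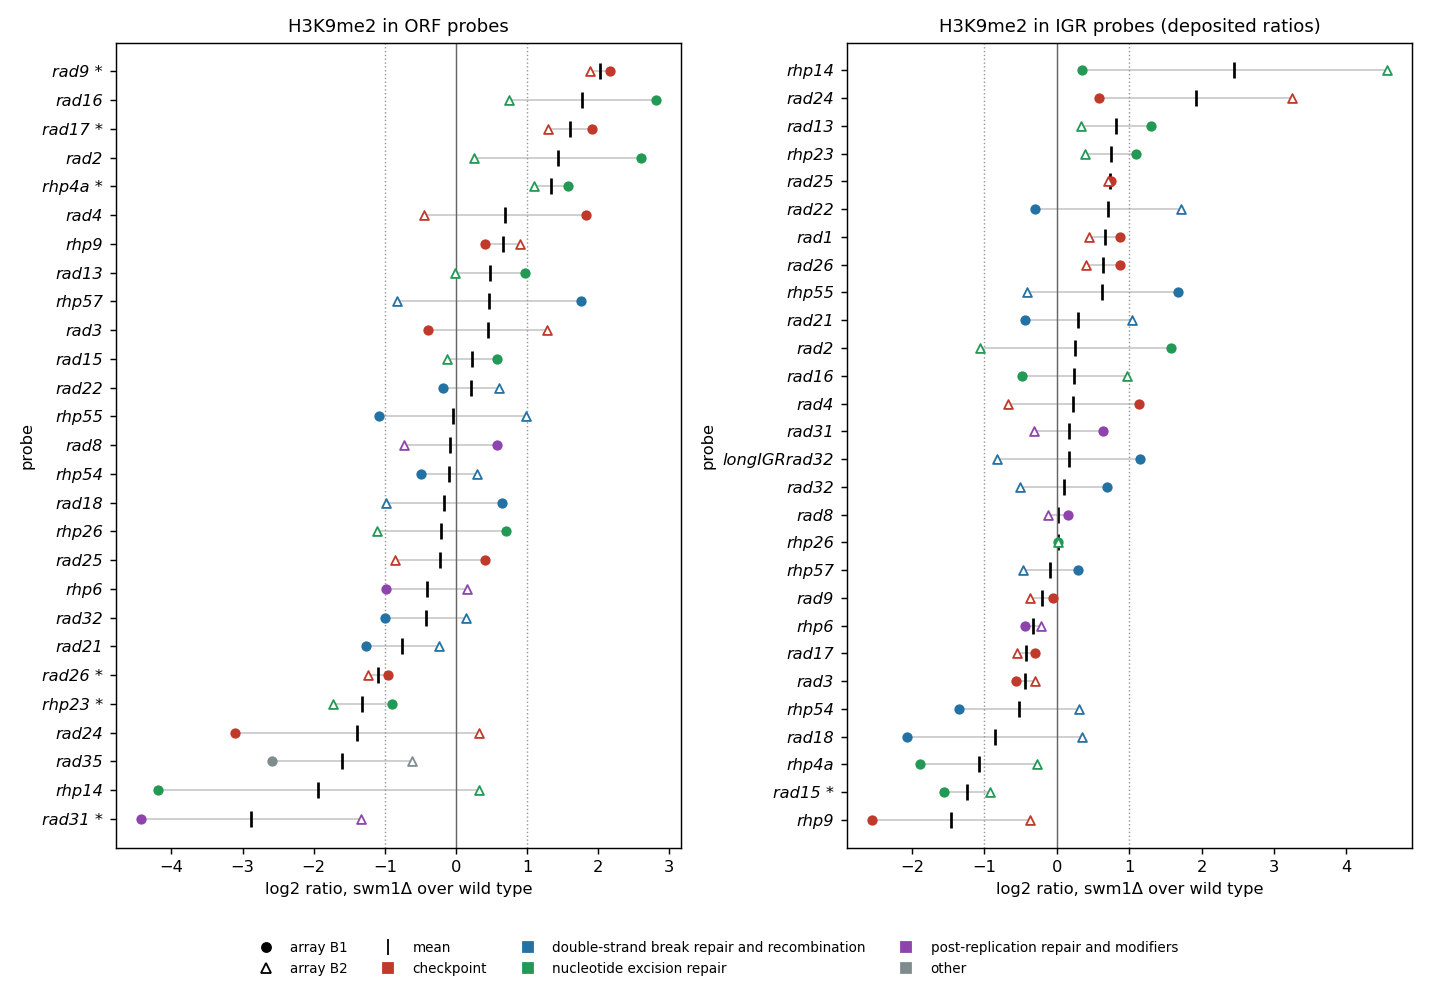
H3K9me2 log2 ratio of swm1Δ over wild type (horizontal axes) in 27 of the 28 ORF probes (left) and 28 of the 29 IGR probes (right), sorted by mean, with colours for the role, filled circles for B1, open triangles for B2, ticks for the mean and asterisks for probes past the rule of 2.0 in 3 data points. The arrays lie far apart for most genes, for example -4.19 and 0.32 at the rhp14 ORF, where the swm1Δ signal on B1 was at most 1.91 times background.

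In the IGR probes, where the deposited ratios were used, the TFIIH helicase gene rad15 was low, with -1.56 on B1 and -0.91 on B2 (mean -1.24 ± 0.45, 3 of 4 data points, limma adjusted p = 0.998), and no probe was high. Over all IGR probes 4.78% were high and 2.65% low, and limma called 0 of 4898 (0%), with 2 of the 29 (rhp14 and rad24) and 5.33% of all probes under an unadjusted p of 0.05. The median of B1 over all IGR probes was 0.47 and that of B2 was -0.06, and with each array centred on its median rad15 no longer met the rule.

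The highest IGR means came from B2 alone. The rhp14 probe had 0.34 on B1 and 4.56 on B2, where its signals were between 0.967 and 1.31 times the local background in both dyes. The rad24 probe had 0.58 and 3.25, with a wild type signal on B2 of 1.11 times background. Next was rad13, with 1.30 and 0.34. The lowest means were at rhp9 (-2.54 and -0.37), rad15 and rhp4a (-1.88 and -0.27). At rhp4a the ORF was high and the IGR below 0 on both arrays.

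The change without swm1 was also compared between the 2 marks, in the ORFs of the same genes. The limma test of H3K4me2 minus H3K9me2 called 0 of 4906 probes (0%) with a smallest adjusted p of 0.60, and 4 of the 28 (rad17, rad26, rad35 and rad9) and 7.77% of all probes had an unadjusted p under 0.05. At rad26 H3K4me2 had a mean of 0.67 and H3K9me2 of -1.09 (difference 1.76, SE 0.54, unadjusted p = 0.021 by limma). The rad26 signals were weak: wild type on C1 was 1.91 and 1.84 times background, and B2 at most 3.29 times. At rad35 the means were 0.97 and -1.60, at rad17 -0.11 and 1.61 and at rad9 0.44 and 2.02. The count depended on the H3K9me2 arrays: with B1 left out 6 of the 28 were called higher for H3K4me2 and 3 lower, against 12.9% and 13% of all ORF probes, and with B2 left out 9 higher and 8 lower, against 28.1% and 26.2%. In those fits the lone array was assumed to vary as the H3K4me2 arrays do. Across the 28 ORFs the means of the 2 marks correlated at r = -0.09.

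The Hrp arrays carry 2 limits that come before their values. In each of the 4 sets (Hrp1 and Hrp3, ORF and IGR) 1 array ran against the other 2, with correlations between -0.13 and -0.29, while the other 2 correlated at r between 0.56 and 0.76. On that array the deposited values follow Cy5, although the Hrp labels put the immunoprecipitate in Cy3 on every array. The arrays that correlate share their dye orientation, so binding and dye cannot be told apart in their agreement. The second limit concerns Hrp1: the deposited values of the 6 data sets labelled H3 in Hrp1-D equal those of the 6 Hrp1-myc data sets in another logarithm, within 0.01 log2 units on at least 99.7% of the spots compared. For the contrary array the H3 label puts the immunoprecipitate in Cy5. The same values thus stand under both labels, and whether Hrp1-myc or H3 was immunoprecipitated on them cannot be told apart from the files.

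Binding was read from the percentile rank of log2 immunoprecipitate over input within each array (1 being the highest), taken as the mean over 3 arrays, and no member reached the cut-off. The methods of the study name the median percentile rank instead. By the median, rad24 (0.965) and rhp23 (0.913) passed for Hrp1 in ORFs, where 4.36% of all probes did, and rad24 (0.978) and rad25 (0.944) for Hrp3 in ORFs, where 4.95% did. No member passed by the median in IGRs, against 4.84% of all probes for Hrp1 and 3.21% for Hrp3. By the mean the share of all probes at or above the cut-off was 0.938% for Hrp1 in ORFs and 0.786% in IGRs (cut-off 0.90), 0.428% for Hrp3 in ORFs (0.92) and 0.121% in IGRs (0.94). The study names no ORF cut-off for Hrp1, so its IGR cut-off was used there. The limma test called 0 probes in each of the 4 sets (0%), with 5, 1, 3 and 2 members under an unadjusted p of 0.05 against between 4.17% and 6.50% of all probes.

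On the Hrp1-labelled ORF probes rhp23, a ubiquitin-binding repair factor, ranked highest, with ranks of 0.99, 0.91 and 0.68 (mean 0.86). Next came rad31 (mean 0.84) and the smc6 gene rad18 (0.75). The lowest were rad22 (0.18, 0.06 and 0.06, mean 0.10), rad2 (0.16) and rad26 (0.16). In IGRs rad25 was highest, with 0.94, 0.82 and 0.72 (mean 0.83), before rhp6 (0.75) and the long IGR of rad32 (0.71). The IGR of rad22 was again lowest, with 0.21, 0.08 and 0.04 (mean 0.11), followed by rad13 (0.21) and rad3 (0.21). In log2 units rad22 lay below the array median on all 3 arrays, at -0.40, -0.91 and -0.66 in the ORF and -0.70, -0.72 and -0.99 in the IGR. The contrary array, 2 in ORFs and 1 in IGRs, is among them. With its sign turned the mean rank of rad22 was 0.39 in the ORF and 0.30 in the IGR, and without it 0.12 and 0.06. Turned, rhp23 and rad31 stood at 0.59 and 0.59 and the rad25 IGR at 0.53. The lowest member ORF was then rad32 (0.18).

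For Hrp3 the highest ORF ranks were those of the phosphoprotein-binding pair. The rad25 ORF had 0.72, 0.94 and 0.96 (mean 0.87), and the rad24 ORF had 0.37, 0.996 and 0.98 (mean 0.78), followed by rad3 (0.71). Arrays 2 and 3 placed both at the top and array 1, the one that runs against them, did not. In log2 units above the array median rad24 had -0.21, 2.44 and 1.61 (mean 1.28 ± 1.36, n = 3) and rad25 had 0.37, 1.35 and 1.28 (SD 0.55), each with a limma adjusted p of 0.69. Without array 1 both passed the cut-off, with mean ranks of 0.99 and 0.95, as did 6.54% of all ORF probes. On array 2 the input signal was between 1.36 and 1.60 times background at rad24 and between 1.44 and 1.47 times at rad25. On array 3 it was at least 9.16 times background at both.

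The rad24 ORF was also high on 2 of the 3 Hrp1-labelled arrays, with ranks of 0.97, 0.23 and 0.97. Without array 2 its mean rank was 0.97, past the cut-off with 4.99% of all ORF probes. With the sign of array 2 turned it was 0.904, past the cut-off with 1.02% of them. No other member passed under either reading in that set. In Hrp1 IGRs no member passed with array 1 turned (2.3% of all IGR probes) or left out (6.11%). For Hrp3 none passed with array 1 turned, in ORFs (2.55% of all) or in IGRs (1.77%), nor in IGRs with array 1 left out (4.23%). Among the members the rad24 and rad25 IGRs had the 2 highest mean ranks for Hrp3 in IGRs, 0.851 and 0.852, ahead of rhp54 (0.74). The ranks of the rad25 IGR were 0.75, 0.90 and 0.90. Those of the rad24 IGR were 0.95, 0.79 and 0.81, so that, unlike its ORF, it ranked highest on the contrary array 1. With array 1 turned the mean ranks of the rad24 and rad25 IGRs were 0.55 and 0.68, below that of rad21 (0.78). Because rad24 and rad25 are close paralogues, their ORF probes may share hybridising DNA, and this was not tested.

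The lowest Hrp3 ORF ranks were those of the checkpoint adaptor gene rhp9 (0.14, 0.06 and 0.07, mean 0.09), of rad22 (mean 0.17) and of rad4 (0.21). The signal of rhp9 was weak on arrays 1 and 2, between 1.28 and 1.63 times background in Cy5. At the rad22 ORF the log2 values were -0.19, -1.20 and -0.61, so that this ORF lay below the median on all 3 arrays for Hrp3 too. The rad22 IGR did not, with 0.88, -0.56 and -1.61. With the contrary array 1 of the ORF set turned, the mean ranks of the rhp9 and rad22 ORFs were 0.33 and 0.25. In Hrp3 IGRs rad4 and rad16 were lowest (means 0.25 and 0.25), then rad9 (0.33). The nuclease gene rad32 had ORF ranks of 0.79, 0.02 and 0.03.

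Over all members the median rank was 0.48 for Hrp1 in ORFs, 0.51 for Hrp1 in IGRs, 0.43 for Hrp3 in ORFs and 0.54 for Hrp3 in IGRs, against 0.50 over all probes in each set. With the contrary array turned, limma called 11, 2, 90 and 137 probes in the 4 sets, in the order just given, and none of them was a member.

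**Figure D5:**
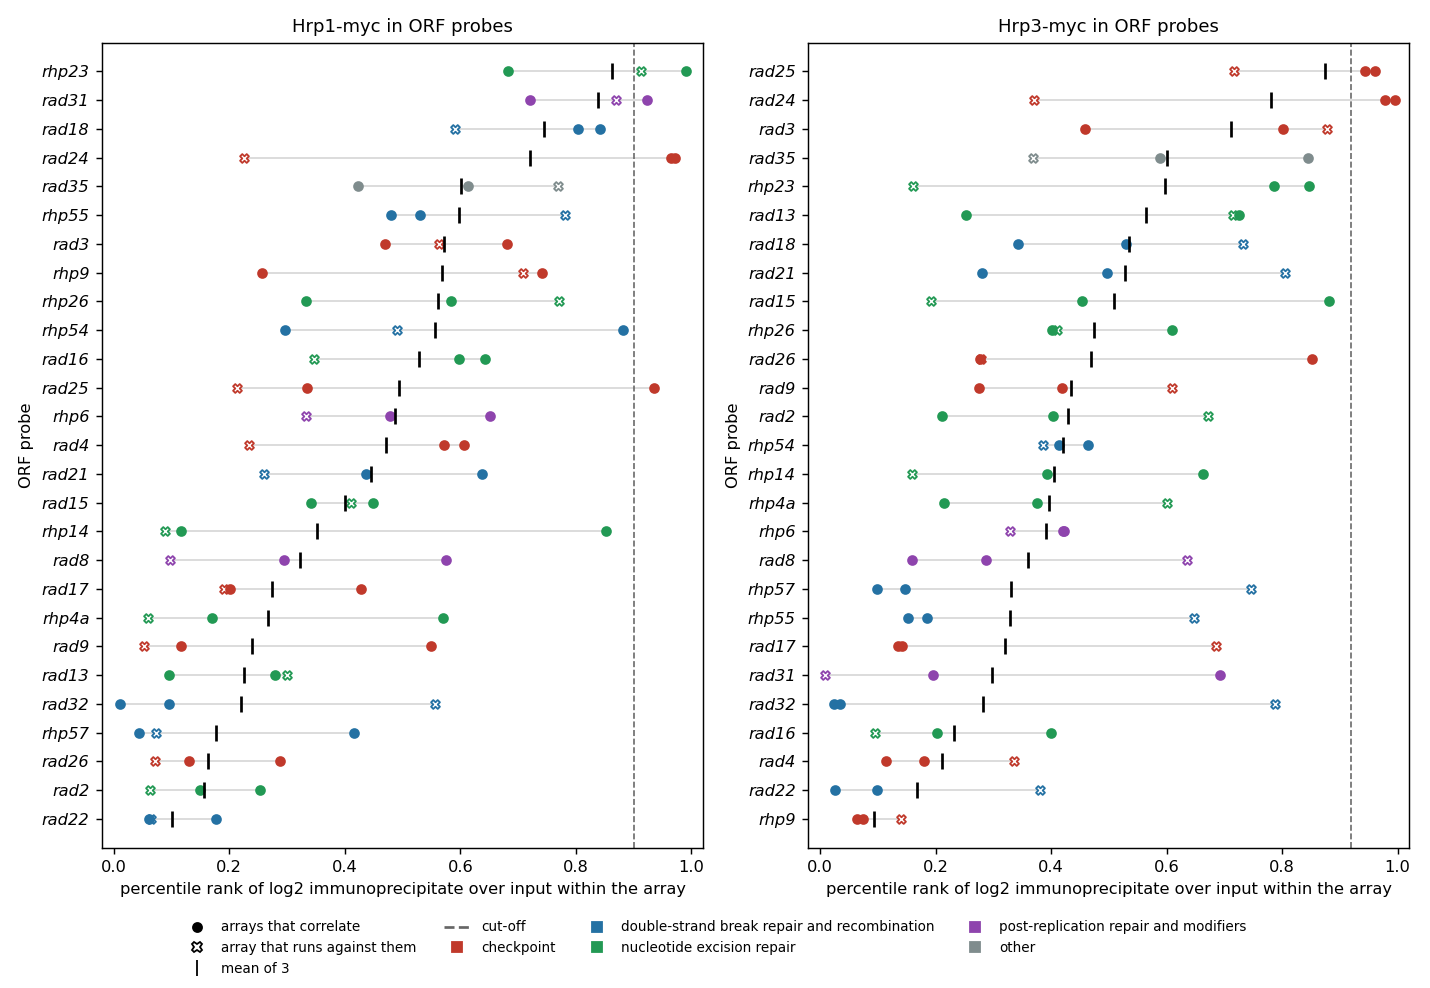
Percentile rank of log2 immunoprecipitate over input within each array (horizontal axes, 0 to 1) for 27 of the 28 ORF probes on Hrp1-labelled (left) and Hrp3-labelled (right) arrays, sorted by the mean of 3 (ticks), with crosses for the array that runs against the other 2 and dashed lines at the cut-offs of 0.90 and 0.92. No mean drawn passes its cut-off, and rad24 and rad25 lie at the top on the 2 correlating Hrp3 arrays.

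The values labelled H3 in Hrp1-D, being those of the Hrp1 arrays, add no independent measurement. They follow 1 dye, with a rank correlation of at least 0.978 with it, and so carry the amount of DNA on each spot as well. Within that limit the rad31 IGR ranked in the top of all 3 arrays (0.98, 0.96 and 0.996) with rad21 (mean 0.94), and the rhp57 and rhp14 IGRs were among the lowest (0.09 and 0.09). In ORFs rad8 and rhp6 were highest (0.90 and 0.90) and rad13 lowest (0.06). The median of the mean ranks was 0.56 over 28 ORF probes and 0.56 over the 28 IGR probes with a value, the long IGR of rad32 having none.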

How the data were processed

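The deposited files were scanner spot intensity values in Cy3 and Cy5 with local background, per the file headers, and for each array the authors' own value: log2 ratios for the methylation arrays after Lowess, log10 values for the Hrp arrays and log2 values for the arrays labelled H3. Genes have 2 spots an array, and a methylation probe at most 4 data points. Deposited values were joined to probes by grid position. The authors used GeneSpring, with intensity-dependent Lowess for methylation and a per chip normalization for the Hrp arrays. The genome build is not given in the sources used here, and no coordinates were used. Current names and gene order came from RefSeq (ASM294v3).

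Intensities were background corrected (normexp, offset 50) and loess normalized within each scanner file in limma 3.58.1 (R 4.3.3). Ratios were turned to swm1Δ over wild type and spots averaged per array. Array means were tested against 0 with limma (lmFit, eBayes) and Benjamini-Hochberg adjustment over all probes of the region. A probe was called at an adjusted p of 0.05, and was high or low past a ratio of 2.0, or its inverse, in 3 data points. H3K9me2 IGR used the deposited log2 ratios of both arrays, since no scanner values were at hand for the IGR part of B1. Hrp log2 ratios were centred on each array's median and ranked. Fits were tested on simulated data. The number of arrays limits the precision.

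Control and missing features were left out. Of the members, 1 gene is counted in the totals and is not reported here by name or drawn. Same-numbered arrays of the 2 marks deviated with r = -0.02 over 4906 ORF probes, so the numbers do not pair them. The 2 expression columns hold no gene names and were not used. Members, roles and lists were chosen with earlier results of these data known. Named were all members past a rule or test, the 3 highest and 3 lowest in each set and a list of central genes. Alternatives were other normalizations, cut-offs, left-out arrays and dye readings. Python 3 scripts used pandas and matplotlib.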

Additional observations from a re-analysis of the deposited data

How the results depend on the processing

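Directions of the 9 H3K4me2 ORF calls and of rad1 held under every alternative run, and rhp26, rad35, rad13 and rad32 stayed past the threshold in all those that kept both arrays. A single array gives no test. Shares in parentheses are those of all probes under the same setting. Members called higher in ORFs were 3 with the deposited ratios (14.4%) and 3 without background correction (14.7%), and the rad1 call made the lower count in IGRs 0 with the deposited ratios (0.611%), median centring (0.948%) or no background correction (0.827%). Median centring put 2 ORFs past the 2.0-fold cut-off (3.77%) and 0 H3K9me2 IGRs low (3%). A cut-off of 1.5 gave 3 high (12.2%) and 3 low (9.99%) H3K4me2 ORFs, 1 low H3K4me2 IGR (1.98%) and 2 high H3K9me2 IGRs (12.6%). Without background correction 1 H3K9me2 ORF was high (3.55%) and 1 low (2.75%). With B1 by its ORF label 1 was high (3.59%) and 0 low (2.65%), and rad17 (-0.31), rad31 (1.54), rad9 (-0.14) and rhp4a (-0.24) reversed.

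With 1 array left out, all data points of the other being required, H3K4me2 ORFs numbered 1 to 2 high (5.04% to 5.95%) and 1 to 1 low (3.18% to 4.47%), H3K4me2 IGRs 0 to 1 low (1.92% to 1.98%), H3K9me2 ORFs 4 to 7 high (9.62% to 20.6%) and 4 to 6 low (8.18% to 23.7%), and H3K9me2 IGRs 2 to 5 high (9.85% to 22.8%) and 0 to 5 low (8.4% to 15%). The difference between marks had 0 to 9 members higher and 0 to 8 lower for H3K4me2. With the replicate number as a block it had 0 calls (smallest member adjusted p 0.69), as it had without the block.

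Members bound for Hrp1 in ORFs were 2 by the median rank (4.36%), 2 at a cut-off of 0.80 (5.52%), 1 with array 2 turned (1.02%, chosen after seeing the data) and 0 to 1 with an array left out (1.61% to 4.99%). For Hrp1 in IGRs they were 2 with the deposited values (7.07%) and 1 at 0.80 (4.56%). For Hrp3 in ORFs they were 2 by the median rank (4.95%), 1 with the deposited values (3.51%), 1 at 0.80 (4.77%) and 0 to 2 with an array left out (0.55% to 6.54%), and in IGRs 1 with the deposited values (3.23%) and 2 at 0.80 (3.33%). Deposited Hrp values follow 1 dye and are not ratios. Alternatives for the arrays labelled H3 were not run, since their values are those of the Hrp1 arrays. Of 138 counts recomputed 96 stayed within 1.5 times the reported count. The cause of the changes was not tested.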
